A study of Rattus norvegicus with 12 samples.

Results

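Chemokines, interleukins, tumour necrosis factor and the receptors that bind them were followed in brain RNA of Sprague-Dawley rats. A gene was taken as a member when its symbol began with Ccl, Ccr, Cxcl, Cxcr or Il and a digit, or was Tnf, Tnfrsf1a, Tnfrsf1b or Cx3cl1, and when its counts summed to at least 20 over all columns of the table. This gave 81 members of 18804 rows: 22 chemokines, 7 chemokine receptors, 49 genes named for interleukins, and 3 of the TNF system. A further 31 symbols matched by name but stayed under the minimum, with sums of up to 18.1, and the lowest members were Ccl7, Il21 and Il9r at 20 counts each. Among those left out were Il6 and Cxcl1, with 12 counts each over all columns. Il10 and Ccr2 were not analysed here.

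The labels describe 3 groups of 4 samples of brain tissue. Controls were held in restraint and received no needling, model rats were restrained in the same way after MCAO/R (occlusion of the middle cerebral artery followed by reperfusion), and electroacupuncture rats had MCAO/R, restraint and electroacupuncture, a current passed through needles, at the Tianfu, Chize, Kongzui and Taiyuan points of the lung meridian. All groups therefore share the restraint, and the columns of the control group are named sham, while the labels name no operation for it. The labels give no age, sex, brain region, side or interval after reperfusion. Of 11 columns, 3 pairs within a group differed by only 1.34 to 1.40 times the sampling variance and were each summed and counted as 1 sample, against 4.74 to 26.5 times for the other 12 pairs within a group. This left 3 controls (A to C), 2 model samples (A, B) and 3 electroacupuncture samples (A to C), with 9335913 to 23835724 counts per sample. No label ties a sample to its own animal, and p-values therefore reflect sample spread that may partly be technical. Values are CPM, counts relative to the library total, with each library scaled by TMM, and are listed in the order A, B, C within each group. They are not divided by transcript length, so levels are compared between samples and not between genes.

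Chemokines are small secreted proteins that steer cells along a gradient by binding receptors with 7 membrane passes, and they are grouped by the spacing of their first cysteines into CC, CXC and CX3C types. Interleukins and TNF act through single-pass receptors that signal mostly by the JAK and STAT proteins, or, for the IL-1, IL-17 and TNF families, by adaptor proteins that lead to NF-kB. After an ischemic stroke these molecules are known for the recruitment of blood leukocytes and the activation of microglia, and some of them, such as fractalkine and IL-34, are made by neurons in the resting brain.

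In both model samples Ccl24, Ccl28 and Cxcl6 (chemokines) were above all controls and all electroacupuncture samples. The same held in both model samples for Il1rn (the IL-1 antagonist), Il15, Il23a, Il34 and the receptor chain Il3ra. Cxcr1 (a chemokine receptor), Il16 and Il1rap (the second chain of IL-1 receptors) were below all controls in both, and were low in electroacupuncture A as well. The estimated log2 fold changes in model against control were 1.49 (SE 0.41) for Ccl24, -2.11 (SE 0.42) for Il16 and -1.44 (SE 0.56) for Il1rap, with 3 controls and 2 model samples. The classical cytokines Tnf, Il1b and Ccl2 stayed at 2.20 CPM or less in every sample.

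No member passed the test in any of the 3 comparisons (edgeR quasi-likelihood test, Benjamini-Hochberg adjusted p under 0.05 over 15487 genes). In model against control the share of all genes called was 0.00646%, and in both comparisons of electroacupuncture it was 0%. At an unadjusted p under 0.05, 13 members were higher and 4 lower in the model, of 63 that passed the filter on low counts, against 7.61% and 6.20% of all genes. For electroacupuncture against model the numbers were 2 higher and 13 lower (all genes, 6.30% and 7.18%), and against control 1 higher and 0 lower (all genes, 2.71% and 0.956%, together 3.66%). DESeq2 on the same samples called 4 members in model against control, where it called 4.96% of all genes, 4 in electroacupuncture against model (4.48% of all genes) and 0 in electroacupuncture against control (0.0065% of all genes). With all 11 columns as separate libraries edgeR called 7 members in model against control (7.37% of all genes) and 11 in electroacupuncture against model (10.9%), a fit that counts near-identical columns more than once. The 63 include members that passed the filter through the group in which they were high, so counts over them describe these samples only.

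Of the 63, 49 were higher in estimate, with a median log2 fold change of 0.63 against 0.02 for all genes, and 24 had both model samples above every control (38.1%, against 18.2% of all genes), while 8 had both below (12.7%, against 19.6%). Together these were 50.8%, against 37.8% of all genes. Among the 50 members with a mean of at least 1 CPM over all samples, the median was 0.42. The groups did not overlap for 16 higher and 5 lower of these, together 42.0% against 38.0% of all genes at that limit. High values in 1 group can lift a member over this limit too, so counts over the 50 also describe these samples only. Cxcl6, for example, averaged 2.43 CPM after MCAO/R alone, against 0.81 in controls and 0.69 in treated samples. Over all 81 members without a filter the groups did not overlap for 28 higher and 9 lower, together 45.7% against 35.4% of all genes. At 1 CPM the share in both directions together was thus near the background. By direction it was 32% higher and 10% lower, against 17.9% and 20.1% of all genes.

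In electroacupuncture against model, 26 of the 63 were higher and 37 lower in estimate, with a median log2 fold change of -0.24 against 0.03 for all genes. Every electroacupuncture sample lay below both model samples for 16 members (25.4%, against 11.7% of all genes) and above both for 3 (4.76%, against 12.9%). With a mean of at least 1 CPM it was 12 below and 3 above of 50 members, or 30.0% against 24.8% of all genes. By direction these were 24% below and 6% above, against 11.3% and 13.5% of all genes. In electroacupuncture against control, 42 of 63 were higher in estimate with a median of 0.24 against 0.01, and the groups did not overlap for 5 members higher and 0 lower (7.94%, against 5.98% and 4.88% of all genes). Without a filter these were 6 and 1 of 81 members (all genes, 5.65% and 4.64%, together 10.3%), and at 1 CPM 4 and 0 of 50 (all genes, 5.98% and 4.97%). The 3 comparisons share samples, so a member that is high in the model alone appears in the first with one sign and in the second with the other.

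**Figure D1:**
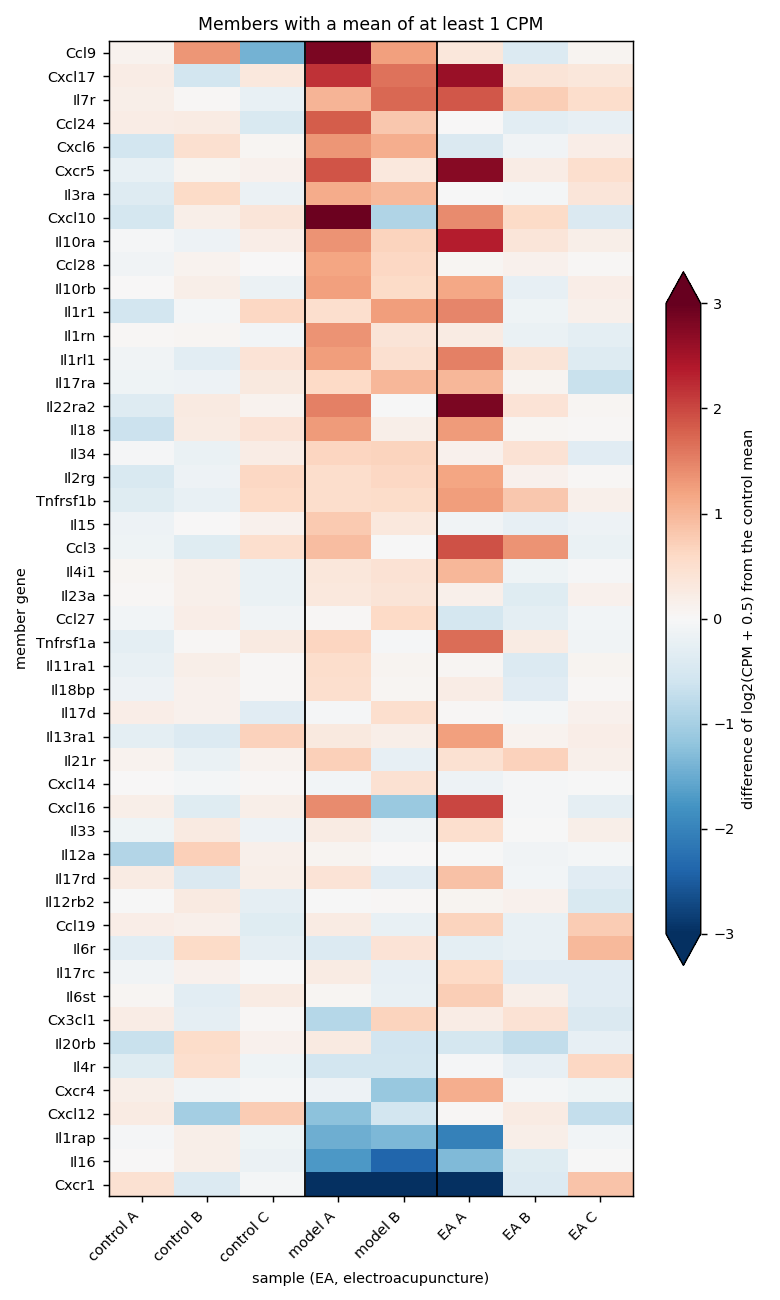
Heat map of 49 of the 50 members with a mean of at least 1 CPM (rows, ordered by their mean in the model) in the 8 samples (columns). Colour gives the difference of log2(CPM + 0.5) from the mean of the 3 controls, limited to 3 in either direction, and Cxcr1 is blue in both model samples and electroacupuncture A.

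The high values were not spread evenly over the samples. Of the 50 members with a mean of at least 1 CPM, 19 had their highest value in electroacupuncture A and 14 in model A, which makes 38.0% and 28.0% against 24.6% and 14.9% of all 14856 genes at that limit. Model B held 7, control B and electroacupuncture C 4 each, control C and electroacupuncture B 1 each and control A 0. Markers of microglia and macrophages were high in the same 2 samples: the 15 listed genes, all measured and none at 0, summed to 430.1, 437 and 608 CPM in the controls, 1313 and 692 CPM in the model and 1718, 636 and 592 CPM with electroacupuncture. Their part in the members' values was not tested. In bulk tissue, fewer cells of a type and less RNA per cell cannot be told apart.

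**Figure D2:**
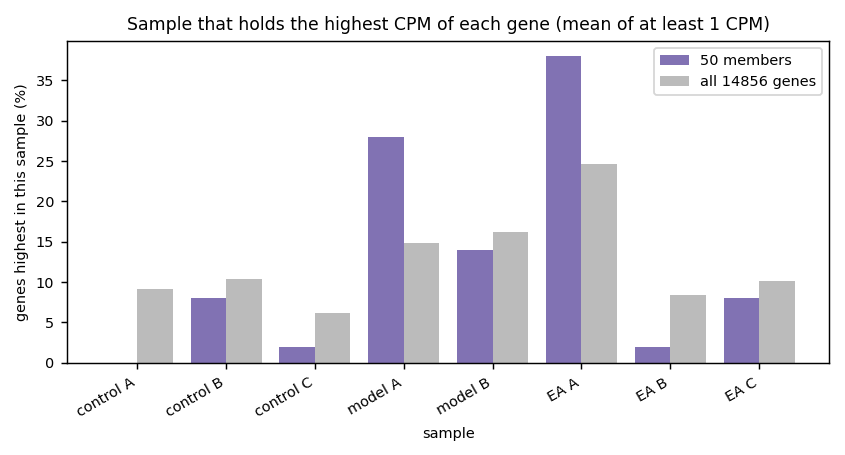
Share of genes (y axis, percent) whose highest CPM lies in each sample (x axis), for the 50 members with a mean of at least 1 CPM (purple) and all 14856 genes at that limit (grey). Electroacupuncture A and model A hold 38.0% and 28.0% of the members.

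Ccl24, eotaxin-2, a ligand of the eosinophil receptor Ccr3, measured 3.67, 3.75 and 2.11 CPM in the controls, 12.1 and 5.8 CPM in the model and 3.12, 2.38 and 2.53 CPM with electroacupuncture. Both model samples lay above all 6 others, and model A was higher than model B. The group means were 3.17 ± 0.926 CPM (SD, n = 3) in controls and 8.93 ± 4.42 CPM (SD, n = 2) with MCAO/R (log2 fold change 1.49, SE 0.41, adjusted p = 0.19), and electroacupuncture against model gave log2 fold change -1.74, SE 0.41, adjusted p = 0.167. Over 17 alternative settings its adjusted p ran from 0.0363 to 0.522 in the first comparison and from 0.0107 to 0.48 in the second.

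Ccl9, a rodent CC chemokine that binds Ccr1, measured 15.8, 37.3 and 5.22 CPM in the controls, 106 and 35.4 CPM in the model and 18.8, 11 and 15.7 CPM with electroacupuncture. Model A was far above all other samples, while model B lay just below control B, so model and control overlapped. Electroacupuncture samples were all below both model samples (log2 fold change -2.23, SE 0.75, adjusted p = 0.27, range over the alternatives 0.0326 to 0.598). Ccl28, a mucosal chemokine that binds Ccr10 and Ccr3, measured 0.733, 0.909 and 0.825 CPM in the controls, 2.52 and 1.53 CPM in the model and 0.868, 0.935 and 0.844 CPM with electroacupuncture. Here both model samples were above the other 6 (log2 fold change 1.29, SE 0.41, adjusted p = 0.241 against control, and log2 fold change -1.19, SE 0.40, adjusted p = 0.269 for electroacupuncture against model). Ccl24, Ccl9 and Ccl28 are among 19 members whose deposited values were fractions in most columns, so their counts are estimates. Cxcl6, Il1rn, Il15, Il34 and Il36rn, described below, are among the 19 as well. In GRCr8 18 members overlap a protein-coding gene, and their values are uncertain where reads could fall to either gene. Among them are Cxcl10 and Cxcl11 (Art3), Cxcl16 (Zmynd15), Il18 (Bco2, Tex12), Il6r (She), Il17rd (Arhgef3), Il4i1 (Atf5, Nup62), Il34 (Rpl29l3) and Ccr3 (Ccr1l1).

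Ccl27, the other ligand of Ccr10, known from skin, measured 55.5, 67.3 and 54.4 CPM in the controls, 60.6 and 89.2 CPM in the model and 40.8, 47.8 and 55.9 CPM with electroacupuncture. Electroacupuncture samples lay below both model samples (log2 fold change -0.64, SE 0.21, adjusted p = 0.267), but model A was inside the control range. In the RefSeq annotation of GRCr8 Ccl27 overlaps Il11ra1, the alpha receptor of IL-11, which measured 20.4, 26.8 and 24.6 CPM in the controls, 34.4 and 25.4 CPM in the model and 24.9, 17.7 and 25.1 CPM with electroacupuncture, and the labels do not say how reads in the overlap were assigned. Ccl19, a ligand of the lymph node homing receptor Ccr7, measured 1.19, 1.14 and 0.641 CPM in the controls, 1.23 and 0.766 CPM in the model and 1.82, 0.765 and 2 CPM with electroacupuncture, with overlapping groups.

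The inflammatory CC chemokines best known from stroke were close to the detection limit. Ccl2, which draws monocytes through Ccr2, stood at 0.183, 0.909 and 0 CPM in the controls, 0.965 and 0.11 CPM in the model and 0.0867, 0.213 and 0.211 CPM with electroacupuncture, where 1 count is worth 0.0425 to 0.114 CPM depending on the sample. Ccl3, a ligand of Ccr1 released by activated microglia, measured 0.367, 0.227 and 0.825 CPM in the controls, 1.29 and 0.438 CPM in the model and 3.04, 1.91 and 0.316 CPM with electroacupuncture. It was highest in electroacupuncture A and B, with electroacupuncture C inside the control range (log2 fold change 1.03, SE 0.92, adjusted p = 0.703 for electroacupuncture against model and log2 fold change 1.87, SE 0.88, adjusted p = 0.843 for electroacupuncture against control). Ccl4, its close relative, stood at 0.0916, 0.114 and 0.0916 CPM in the controls, 0.857 and 0.657 CPM in the model and 0.434, 0.765 and 0.211 CPM with electroacupuncture, so that both model samples and all electroacupuncture samples were above the controls, at no more than 18 counts a sample. Ccl5, which attracts T cells and monocytes, stood at 0.275, 0.455 and 0.183 CPM in the controls, 0.804 and 0.602 CPM in the model and 1.3, 0.468 and 0.211 CPM with electroacupuncture. Ccl2, Ccl4 and Ccl5 did not pass the filter and were not tested.

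Cxcl10, an interferon-induced ligand of Cxcr3, a receptor on T cells, measured 0.367, 0.909 and 1.1 CPM in the controls, 9.06 and 0.164 CPM in the model and 2.86, 1.36 and 0.422 CPM with electroacupuncture. Model A was highest, at 169 counts, and model B, with 3 counts, was lower than every control. Of the electroacupuncture samples A and B were above the controls and C was not. Cxcl9 and Cxcl11, which bind the same receptor, reached no more than 0.641 and 0.965 CPM in any sample. Cxcl6, of the type that attracts neutrophils, measured 0.367, 1.25 and 0.825 CPM in the controls, 2.68 and 2.19 CPM in the model and 0.434, 0.68 and 0.949 CPM with electroacupuncture. Both model samples were above all others (log2 fold change 1.59, SE 0.56, adjusted p = 0.284 against control and log2 fold change -1.82, SE 0.56, adjusted p = 0.236 for electroacupuncture against model).

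The start regions of 4 members are shown, whose RNA was highest in a model sample (Cxcl10, Cxcl6 and Ccl24) or low in both (Il1rap). All 4 hold a match to the letters below and do not stand for all members with such values. Other members meet this description, hold a match and are not shown. Among them are Ccl27, Il10rb, Cxcl13 and Il18bp, highest in a model sample, and Il27ra, low in both. Cxcr1, Il16, Ccl28, Il3ra, Il34 and Il15 also meet this description and are not shown. For these, no match was found or no window was at hand. Each runs 5′ to 3′ over 300 bases, from 250 before the annotated RefSeq start to 50 after it (build GRCr8). Capitals mark matches, on either strand, to GGGA, any 4 bases and CC, letters typical of NF-kB sites, or to GAAA, any 2 bases and GAAA, letters typical of interferon response elements and chosen after the values were known.
Cxcl10 (chr14:15988816-15989115, plus strand): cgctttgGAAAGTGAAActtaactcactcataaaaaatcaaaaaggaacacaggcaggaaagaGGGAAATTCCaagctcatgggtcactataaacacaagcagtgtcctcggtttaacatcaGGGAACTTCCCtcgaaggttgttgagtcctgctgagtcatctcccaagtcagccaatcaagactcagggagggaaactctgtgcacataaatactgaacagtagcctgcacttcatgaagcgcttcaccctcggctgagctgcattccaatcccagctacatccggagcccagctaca
Cxcl6 (chr14:17596368-17596667, minus strand): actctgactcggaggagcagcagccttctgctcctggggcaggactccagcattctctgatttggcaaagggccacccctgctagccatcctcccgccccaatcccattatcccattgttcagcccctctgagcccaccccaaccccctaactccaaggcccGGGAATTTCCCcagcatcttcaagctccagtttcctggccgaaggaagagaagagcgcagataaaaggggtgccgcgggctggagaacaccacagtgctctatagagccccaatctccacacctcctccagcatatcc
Ccl24 (chr12:26737173-26737472, plus strand): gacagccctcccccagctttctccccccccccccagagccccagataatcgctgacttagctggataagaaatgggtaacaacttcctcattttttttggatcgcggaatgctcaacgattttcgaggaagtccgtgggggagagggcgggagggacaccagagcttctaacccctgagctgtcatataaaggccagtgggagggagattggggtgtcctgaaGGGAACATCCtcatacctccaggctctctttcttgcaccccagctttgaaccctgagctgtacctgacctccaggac
Il1rap (chr11:87704293-87704592, minus strand): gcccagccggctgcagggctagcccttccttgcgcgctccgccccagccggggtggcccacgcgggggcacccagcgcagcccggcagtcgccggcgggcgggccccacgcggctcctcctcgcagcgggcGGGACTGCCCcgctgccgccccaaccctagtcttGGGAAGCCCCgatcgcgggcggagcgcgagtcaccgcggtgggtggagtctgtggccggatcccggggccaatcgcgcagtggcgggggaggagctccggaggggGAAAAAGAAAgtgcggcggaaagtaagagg
Such a match to the NF-kB letters lay in 22 of the 65 members' windows of this length (33.8%, against 19.6% of 27457 windows of all genes), and one to the interferon letters in 6 (9.23%, against 3.77%). Cxcl10 holds both kinds, with 2 places for the first that overlap between the strands at 1 of them. Il1rap also holds both, so the letters are found in members with high and with low values in the model. A match describes letters only and is no evidence of binding.

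Cxcl12, which retains stem cells and guides neurons and leukocytes through Cxcr4, measured 101, 41.7 and 146 CPM in the controls, 35.7 and 58.4 CPM in the model and 87.5, 101 and 51.9 CPM with electroacupuncture. Model A was the lowest sample, but control B lay between the model samples, and the groups overlapped (log2 fold change -1.03, SE 0.53, adjusted p = 0.421 against control and log2 fold change 0.77, SE 0.52, adjusted p = 0.593 for electroacupuncture against model). Cxcl14, a chemokine made by some interneurons, measured 106, 100.4 and 106 CPM in the controls, 99 and 144 CPM in the model and 94.1, 102 and 103 CPM with electroacupuncture. Model B was highest and the other 7 samples lay close together. Cxcl16, a membrane-bound ligand that can be shed, measured 8.06, 5.34 and 8.06 CPM in the controls, 19.6 and 3.01 CPM in the model and 29.9, 6.8 and 5.8 CPM with electroacupuncture. It was high in model A and electroacupuncture A and lowest in model B, so the model samples stood on opposite sides of the controls. Cxcl17, a mucosal chemokine, measured 0.733, 0.227 and 0.825 CPM in the controls, 4.23 and 2.79 CPM in the model and 5.9, 0.893 and 0.844 CPM with electroacupuncture. Both model samples and electroacupuncture A were high, and the other electroacupuncture samples lay just above the highest control (log2 fold change 2.52, SE 0.94, adjusted p = 0.3 against control and log2 fold change 2.04, SE 0.89, adjusted p = 0.843 for electroacupuncture against control).

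Cx3cl1, fractalkine, a neuronal membrane chemokine that signals to microglia, measured 276, 194 and 243 CPM in the controls, 130.1 and 374 CPM in the model and 273, 318 and 173 CPM with electroacupuncture. Model A was the lowest and model B the highest of the 8 samples, so the group means of 238 ± 41.3 CPM and 252 ± 172 CPM (SD, n = 3 and 2) were close while the model samples lay far apart (log2 fold change 0.08, SE 0.44, adjusted p = 0.948). Its receptor Cx3cr1, which the symbol rule does not take in, measured 5.13, 3.87 and 4.49 CPM in the controls, 10.1 and 5.75 CPM in the model and 14.8, 9.27 and 4.75 CPM with electroacupuncture. Ligand and receptor thus had their highest values in different samples.

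Cxcr1 had the largest estimated difference of the 63 tested members in model against control and in electroacupuncture against model. Cxcr1, a receptor for neutrophil-attracting CXC chemokines, measured 19.5, 10.5 and 13.4 CPM in the controls, 0.0536 and 0.329 CPM in the model and 0.26, 10.4 and 25.8 CPM with electroacupuncture. Both model samples and electroacupuncture A were near 0, at 1, 6 and 3 counts, while the other 5 samples had 92 to 245 counts. The model held 1.29% of the control level from summed counts (95% exact interval 0.514% to 2.67%, for counting error only), and the fit gave log2 fold change -6.18, SE 1.76, adjusted p = 0.205. Electroacupuncture against model gave log2 fold change 5.93, SE 1.74, adjusted p = 0.223, with overlapping groups because of electroacupuncture A. Its adjusted p over the alternatives ran from 0.000171 to 0.511 and from 0.000445 to 0.557 in these 2 comparisons.

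Genes of neutrophils and monocytes were also read in these samples. S100a8, an alarm protein of those cells, measured 2.29, 0.455 and 1.01 CPM in the controls, 1.93 and 1.2 CPM in the model and 1.91, 2.21 and 0 CPM with electroacupuncture, and its partner S100a9 measured 4.12, 3.18 and 4.31 CPM in the controls, 3.38 and 3.23 CPM in the model and 2.86, 4.93 and 0.738 CPM with electroacupuncture. Mpo, a granule enzyme of neutrophils, was at 0.0547 to 0.367 CPM over the 8 samples, and Camp, a granule peptide, at 0.0867 to 1.01 CPM. Of the 12 genes on that list 11 were measured and summed to 64.2, 52.8 and 87.1 CPM in the controls, 137 and 89.3 CPM in the model and 136, 79.6 and 55 CPM with electroacupuncture, and 1 or 2 genes were at 0 in model A, electroacupuncture A and electroacupuncture C. Lyz2, which microglia and macrophages also make, was the largest part, at 104 and 67.4 CPM in the model. The summed CPM of 11 hippocampal markers was low in the same 3 samples as Cxcr1, at 852, 683 and 755 CPM in the controls, 188 and 216 CPM in the model and 141, 647 and 620.2 CPM with electroacupuncture. Not every gene followed the sum: Pdzd2 was highest in electroacupuncture A, at 13.9 CPM against 2.11 to 5.78 CPM elsewhere, and Spink8, at 0 in control B, was at most 0.422 CPM. The part of the difference in the sum in the values of Cxcr1, Il16 and Il1rap was not tested.

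**Figure D3:**
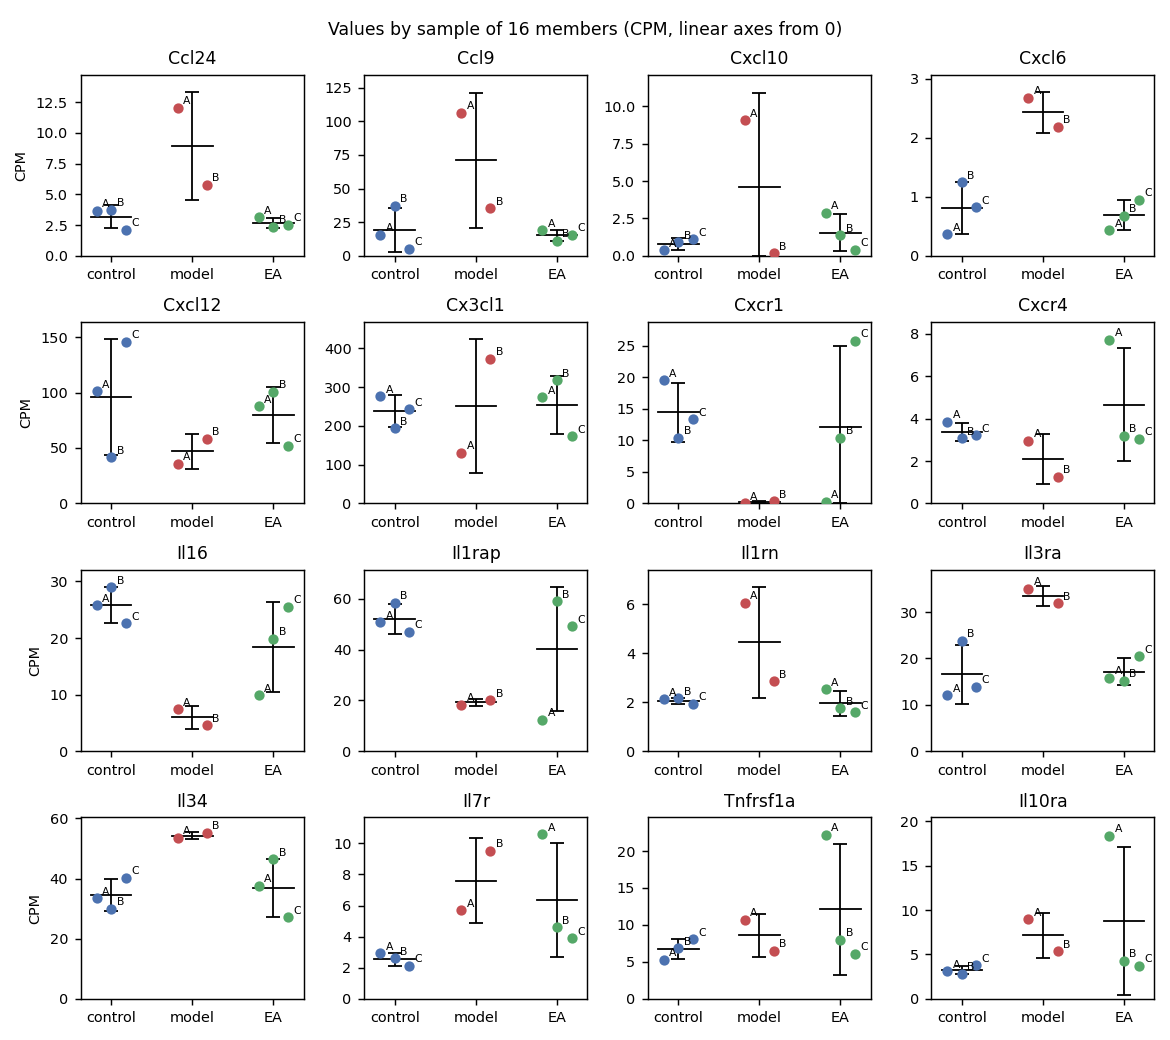
CPM by sample (letters A to C) of 16 members in the 3 groups, with the group mean (line) and SD (bar, drawn no lower than 0), on linear y axes from 0. Cxcr1, Il16 and Il1rap are low in electroacupuncture A and in the model, and Ccl24 and Il3ra are high in both model samples alone.

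Cxcr4, the receptor of Cxcl12, measured 3.85, 3.07 and 3.21 CPM in the controls, 2.95 and 1.26 CPM in the model and 7.72, 3.19 and 3.06 CPM with electroacupuncture. Both model samples were below the other 6, and electroacupuncture A was highest (log2 fold change -0.68, SE 0.55, adjusted p = 0.603 against control and log2 fold change 1.14, SE 0.55, adjusted p = 0.434 for electroacupuncture against model). Cxcr5, the receptor of Cxcl13 on B cells, measured 0.183, 0.341 and 0.366 CPM in the controls, 2.41 and 0.493 CPM in the model and 4.77, 0.425 and 0.633 CPM with electroacupuncture. It was high in electroacupuncture A and model A (log2 fold change 2.66, SE 1.15, adjusted p = 0.843 for electroacupuncture against control), and in GRCr8 it overlaps Bcl9l, a gene of another family. Its ligand Cxcl13 (chosen with its values known) was at 0.0916, 0 and 0.275 CPM in the controls, 2.63 and 1.2 CPM in the model and 0.52, 0.085 and 0 CPM with electroacupuncture. Ccr3, Ccr9 and Ccr10 had means under 1 CPM.

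Several cytokines of the IL-1 family, though not IL-18, act through receptor pairs in which Il1rap is the shared second chain. Il1rap measured 50.7, 58.4 and 47.1 CPM in the controls, 18.3 and 20.1 CPM in the model and 12.4, 59 and 49.1 CPM with electroacupuncture. Both model samples and electroacupuncture A lay far below the other 5 (log2 fold change -1.44, SE 0.56, adjusted p = 0.321 against control, log2 fold change 1.07, SE 0.55, adjusted p = 0.465 for electroacupuncture against model). Il1r1, the binding chain for IL-1, measured 3.02, 4.43 and 7.42 CPM in the controls, 6.8 and 11.7 CPM in the model and 13.8, 4.25 and 5.27 CPM with electroacupuncture, highest in electroacupuncture A and model B. Its 2 classical ligands were scarce. Il1b, the secreted form made by microglia and macrophages, stood at 0.183, 0 and 2.2 CPM in the controls, 0.429 and 0.11 CPM in the model and 0.607, 0.595 and 0.211 CPM with electroacupuncture, highest in control C with 24 counts, and both model samples lay inside the control range. Il1a measured 0.916, 0.455 and 1.28 CPM in the controls, 0.375 and 0.164 CPM in the model and 0.781, 0.468 and 0.316 CPM with electroacupuncture, with both model samples below every control.

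Il1rn, the antagonist that blocks Il1r1, measured 2.11, 2.16 and 1.92 CPM in the controls, 6.05 and 2.85 CPM in the model and 2.52, 1.74 and 1.58 CPM with electroacupuncture. Both model samples were above all others (log2 fold change 1.11, SE 0.41, adjusted p = 0.299 against control and log2 fold change -1.19, SE 0.41, adjusted p = 0.278 for electroacupuncture against model). Il36rn, the antagonist of the IL-36 receptor (chosen with its values known) was at 0.275, 0.455 and 0.366 CPM in the controls, 1.77 and 1.09 CPM in the model and 0.52, 0.383 and 0.422 CPM with electroacupuncture. Both model samples were above the other 6 here too. Both genes overlap Il36b in GRCr8.

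Il33, an alarm signal held in nuclei of glia, measured 32.5, 43.2 and 32.1 CPM in the controls, 42.1 and 33.1 CPM in the model and 50.8, 35.4 and 40.6 CPM with electroacupuncture, and the groups overlapped (log2 fold change 0.07, SE 0.22, adjusted p = 0.915 against control). Il1rl1, its receptor ST2, measured 1.01, 0.796 and 1.65 CPM in the controls, 3.32 and 1.75 CPM in the model and 4.08, 1.61 and 0.738 CPM with electroacupuncture, above every control in both model samples and highest in electroacupuncture A. Il18, released after inflammasome cleavage, measured 3.39, 6.71 and 7.7 CPM in the controls, 14.4 and 6.46 CPM in the model and 14.2, 5.91 and 5.8 CPM with electroacupuncture, highest in model A and electroacupuncture A. Il18bp, which neutralises IL-18, measured 25.4, 30.8 and 28.8 CPM in the controls, 40.2 and 29.3 CPM in the model and 32.9, 22.4 and 29.1 CPM with electroacupuncture, with model B inside the control range. Il1rapl2, a relative of Il1rap known for roles at synapses and chosen with its values known, was at 0, 0.455 and 0.641 CPM in the controls, 1.88 and 3.01 CPM in the model and 0.434, 0.425 and 0.738 CPM with electroacupuncture.

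Il16, known as a T cell attractant that binds Cd4 and, in a longer form, as a neuronal protein, had the smallest p of the members in model against control. It measured 25.8, 29 and 22.6 CPM in the controls, 7.39 and 4.54 CPM in the model and 9.89, 19.9 and 25.5 CPM with electroacupuncture. Both model samples and electroacupuncture A were lower than the other 5, and every electroacupuncture sample was above the model, electroacupuncture A least. Group means were 25.8 ± 3.18 CPM (SD, n = 3), 5.97 ± 2.02 CPM (SD, n = 2) and 18.4 ± 7.91 CPM (SD, n = 3). The fit gave log2 fold change -2.11, SE 0.42, adjusted p = 0.137 against control and log2 fold change 1.62, SE 0.41, adjusted p = 0.179 for electroacupuncture against model. Over the alternatives the adjusted p ran from 0.000162 to 0.455 and from 0.00751 to 0.533. DESeq2 called Il16 and Cxcr1 in both of these comparisons (adjusted p = 0.000162 and 0.000171 against control, 0.00847 and 0.000445 against model).

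Il34, a neuronal ligand of the microglial receptor Csf1r, measured 33.4, 29.9 and 40.2 CPM in the controls, 53.5 and 55.1 CPM in the model and 37.5, 46.4 and 27.1 CPM with electroacupuncture. Both model samples lay above all others and close together (log2 fold change 0.65, SE 0.23, adjusted p = 0.286 against control). Csf1r, the receptor, is not a member and measured 46.9, 42.9 and 56.3 CPM in the controls, 127 and 72.6 CPM in the model and 221, 73.1 and 54.5 CPM with electroacupuncture. Il3ra, the binding chain for IL-3, measured 12, 23.9 and 13.9 CPM in the controls, 35 and 31.9 CPM in the model and 15.9, 15.1 and 20.5 CPM with electroacupuncture. Again both model samples were above the other 6 (log2 fold change 1.01, SE 0.30, adjusted p = 0.215 against control and log2 fold change -0.96, SE 0.30, adjusted p = 0.237 for electroacupuncture against model). Il4i1, an enzyme that breaks down amino acids and is named for its induction by IL-4, measured 5.5, 5.91 and 4.49 CPM in the controls, 6.75 and 7.28 CPM in the model and 10.9, 4.8 and 5.17 CPM with electroacupuncture, highest in electroacupuncture A.

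**Figure D4:**
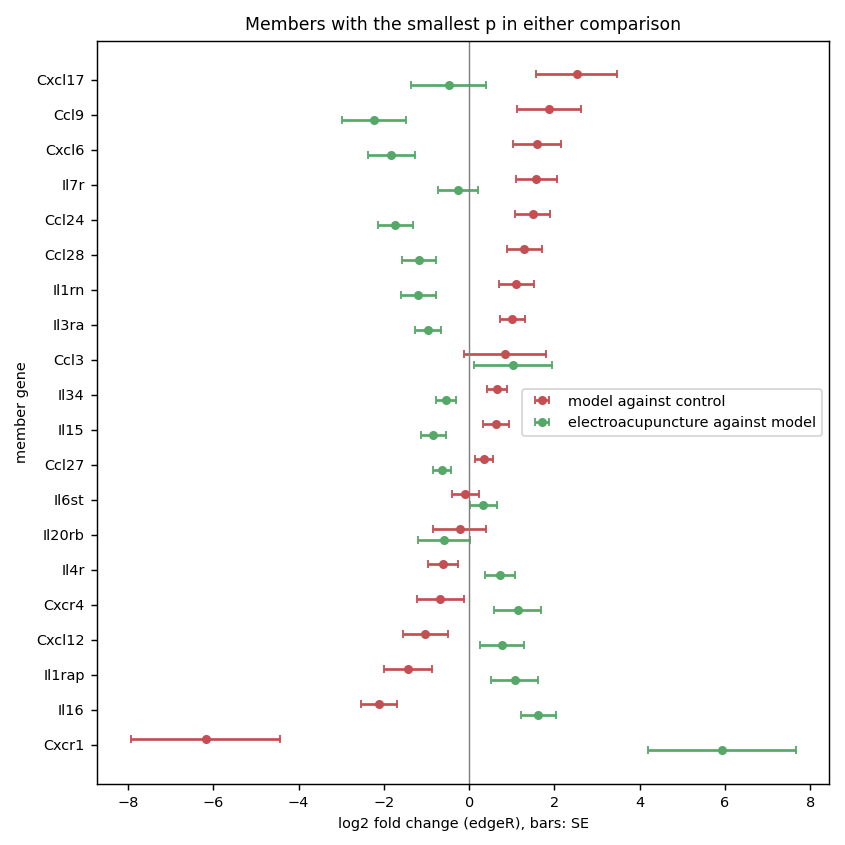
Log2 fold change (x axis, edgeR, bars show the SE) of 20 members in model against control (red) and electroacupuncture against model (green). They are the 8 with the smallest p in each direction of either comparison, among members with a mean of at least 1 CPM. Members under that limit, such as Il36rn, are left out whatever their p. The comparisons share the model samples, none of the changes passed after adjustment, and Il16 and Ccl24 lie at -2.11 and 1.49 in the first.

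Receptors that share the common gamma chain serve IL-2, IL-4, IL-7, IL-9, IL-15 and IL-21. Il7r, the receptor of IL-7, measured 2.93, 2.62 and 2.11 CPM in the controls, 5.68 and 9.53 CPM in the model and 10.6, 4.59 and 3.9 CPM with electroacupuncture. All model and all electroacupuncture samples were above all controls, electroacupuncture A and model B most of all (log2 fold change 1.57, SE 0.48, adjusted p = 0.232 against control and log2 fold change 1.31, SE 0.45, adjusted p = 0.843 for electroacupuncture against control). It was the 1 member past an unadjusted p of 0.05 in the latter comparison. Il2rg, the gamma chain itself, measured 1.28, 1.71 and 3.3 CPM in the controls, 3.05 and 3.29 CPM in the model and 5.12, 2.21 and 2 CPM with electroacupuncture, with control C level with the model. Il4r, the receptor chain for IL-4 and IL-13, measured 11.6, 21.5 and 13.7 CPM in the controls, 10.1 and 10.1 CPM in the model and 14.7, 12.6 and 23.4 CPM with electroacupuncture. Both model samples were equal and below the other 6 (log2 fold change -0.62, SE 0.35, adjusted p = 0.469 against control and log2 fold change 0.73, SE 0.35, adjusted p = 0.427 for electroacupuncture against model). Il13ra1, its partner for IL-13, measured 3.85, 3.52 and 8.15 CPM in the controls, 6.05 and 5.53 CPM in the model and 12.1, 5.27 and 5.59 CPM with electroacupuncture.

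Il15, a cytokine for natural killer and memory T cells, measured 2.75, 3.18 and 3.48 CPM in the controls, 5.73 and 4 CPM in the model and 2.86, 2.55 and 2.74 CPM with electroacupuncture, so both model samples were above the rest (log2 fold change -0.84, SE 0.30, adjusted p = 0.29 for electroacupuncture against model, log2 fold change -0.21, SE 0.28, adjusted p = 0.868 for electroacupuncture against control). Il21r, the IL-21 receptor, measured 1.1, 0.796 and 1.1 CPM in the controls, 1.93 and 0.766 CPM in the model and 1.56, 1.91 and 1.16 CPM with electroacupuncture, with overlap in the model comparison. Of 13 listed lymphocyte markers, Cd3d, a chain of the T cell receptor complex, was at 0 in 5 samples and reached 0.161 CPM in model A. Cd3e, another chain of that complex, measured 29.4, 21.1 and 8.15 CPM in the controls, 0.0536 and 0.219 CPM in the model and 0.954, 6.84 and 10.2 CPM with electroacupuncture, and was lowest in the same 3 samples as Cxcr1. The list summed to 43.2, 34.2 and 18.2 CPM in the controls, 86.5 and 17.6 CPM in the model and 86.1, 25 and 22 CPM with electroacupuncture. Cd4, which rat macrophages also carry, made 79.8 and 81.5 CPM of the sums in model A and electroacupuncture A, and Cd3e made most of the sums in control A and B. Their part in the members' values was not tested.

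Il10ra, the binding chain of the IL-10 receptor on leukocytes and microglia, measured 3.12, 2.84 and 3.76 CPM in the controls, 8.95 and 5.37 CPM in the model and 18.4, 4.29 and 3.69 CPM with electroacupuncture. Electroacupuncture A had by far the highest value, and both model samples were above every control (log2 fold change 1.43, SE 0.64, adjusted p = 0.843 for electroacupuncture against control). Il10rb, the chain shared with IL-22 and others, measured 6.96, 7.96 and 6.05 CPM in the controls, 17.1 and 10.6 CPM in the model and 16.1, 5.78 and 8.02 CPM with electroacupuncture, with model A and electroacupuncture A highest. Il22ra2, a soluble receptor that binds IL-22, measured 0.183, 0.568 and 0.458 CPM in the controls, 2.04 and 0.383 CPM in the model and 5.81, 0.68 and 0.422 CPM with electroacupuncture, mostly in electroacupuncture A (log2 fold change 2.5, SE 1.18, adjusted p = 0.843 for electroacupuncture against control). Il20rb, a receptor chain for IL-20 type cytokines, measured 0.733, 2.39 and 1.65 CPM in the controls, 1.88 and 0.821 CPM in the model and 0.868, 0.68 and 1.16 CPM with electroacupuncture, with no order by group (log2 fold change -0.23, SE 0.61, adjusted p = 0.892 against control, log2 fold change -0.82, SE 0.57, adjusted p = 0.843 for electroacupuncture against control).

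The IL-6 receptors followed no group. Il6st, gp130, the signalling chain shared by the IL-6 family, measured 71.7, 55.1 and 81.2 CPM in the controls, 71.8 and 58.5 CPM in the model and 114, 77.5 and 54.1 CPM with electroacupuncture. Only electroacupuncture A stood above the rest (log2 fold change -0.09, SE 0.31, adjusted p = 0.918 against control and log2 fold change 0.33, SE 0.31, adjusted p = 0.723 for electroacupuncture against model). Il6r, the IL-6 binding chain, measured 18.5, 34.3 and 19.1 CPM in the controls, 17.2 and 30.6 CPM in the model and 18.6, 19.6 and 45.7 CPM with electroacupuncture, highest in electroacupuncture C and next in control B. Il11ra1 was given above beside Ccl27, and Il11, its ligand, had a mean under 1 CPM.

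Subunits of IL-12 and IL-23 were measured at low levels. Il12a, the p35 chain, measured 2.38, 8.19 and 5.31 CPM in the controls, 5.09 and 4.82 CPM in the model and 4.68, 4.38 and 4.54 CPM with electroacupuncture, with the controls spread widest (log2 fold change -0.22, SE 0.42, adjusted p = 0.9 for electroacupuncture against control). Il12rb2, the signalling chain of the IL-12 receptor, measured 7.88, 9.78 and 6.6 CPM in the controls, 7.98 and 8.27 CPM in the model and 8.5, 8.84 and 5.7 CPM with electroacupuncture. Il23a, the p19 chain of IL-23, measured 2.38, 2.62 and 1.92 CPM in the controls, 3 and 3.17 CPM in the model and 2.6, 1.66 and 2.53 CPM with electroacupuncture, with both model samples just above the highest control. For Il23a both model samples also lay above every electroacupuncture sample. None of these 3 genes passed the test.

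In the IL-17 family, Il17ra, the receptor chain that all its complexes share, measured 18.1, 17.7 and 24.4 CPM in the controls, 30.3 and 40.4 CPM in the model and 39.8, 21.2 and 12.2 CPM with electroacupuncture. Both model samples and electroacupuncture A were above every control. Il17rc, its partner for IL-17A, measured 3.3, 3.98 and 3.57 CPM in the controls, 4.34 and 2.96 CPM in the model and 5.73, 2.72 and 2.74 CPM with electroacupuncture. Il17rd, a family member also known to restrain growth factor signals, measured 4.86, 2.84 and 4.58 CPM in the controls, 5.46 and 3.07 CPM in the model and 7.72, 3.74 and 3.06 CPM with electroacupuncture, and like Il17rc it was highest in electroacupuncture A. Il17d, a ligand found in nervous tissue, measured 12.7, 12.2 and 8.7 CPM in the controls, 10.8 and 16 CPM in the model and 11.4, 10.6 and 12.1 CPM with electroacupuncture, highest in model B.

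Tnf and its receptors differed by sample more than by group. Tnf stood at 0, 0.114 and 0.641 CPM in the controls, 0.107 and 0.0547 CPM in the model and 0.347, 0.638 and 0.105 CPM with electroacupuncture, with at most 15 counts in a sample, and it was not tested. Tnfrsf1a, the widely expressed death domain receptor, measured 5.32, 6.82 and 8.06 CPM in the controls, 10.7 and 6.51 CPM in the model and 22.2, 7.95 and 6.12 CPM with electroacupuncture, and electroacupuncture A exceeded all other samples (log2 fold change 0.84, SE 0.50, adjusted p = 0.843 for electroacupuncture against control). Tnfrsf1b, the receptor of leukocytes and microglia, measured 0.367, 0.455 and 1.19 CPM in the controls, 1.12 and 1.15 CPM in the model and 2.17, 1.45 and 0.738 CPM with electroacupuncture, again highest in electroacupuncture A (log2 fold change 1.10, SE 0.60, adjusted p = 0.843). Lower in estimate in that comparison were Ccl27 (log2 fold change -0.29, SE 0.19, adjusted p = 0.843), Il16 (log2 fold change -0.49, SE 0.35, adjusted p = 0.843), Ccl24 (log2 fold change -0.24, SE 0.38, adjusted p = 0.881) and Cxcl12 (log2 fold change -0.27, SE 0.46, adjusted p = 0.891), as well as Il1rap (log2 fold change -0.37, SE 0.48, adjusted p = 0.865). The groups overlapped for each of these 5.

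The remaining members, 31 in all with a mean of 0.158 to 0.947 CPM, include Ccl2, Ccl4, Ccl5, Cxcl13, Il1a, Il1b, Il36rn and Tnf, described above. No sample exceeded 3.30 CPM for any of them, and 13 of the 31 passed the filter. The highest single value was that of Ccr3, the eotaxin receptor, in electroacupuncture A. Ccr3 stood at 0.733, 0.114 and 0.458 CPM in the controls and 0.214 and 1.42 CPM in the model. With electroacupuncture it stood at 3.30, 0.595 and 0.527 CPM, so electroacupuncture B and C lay inside the control range.

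Electroacupuncture A was singled out by its values in these same members, and Cxcr1, Il16 and Il1rap were low in it. Leaving it out therefore raised their estimates against the model, so passing without it is no support for a difference. It differed from electroacupuncture B and C in many members, and results that compare the treated group were repeated without it. Then 3 members passed in electroacupuncture against model, all higher: Cxcr1 (log2 fold change 6.5, SE 0.79, adjusted p = 0.0249), Il16 (1.93, SE 0.27, adjusted p = 0.0295) and Il1rap (1.5, SE 0.17, adjusted p = 0.0212), in a fit that called 1.82% of all genes. In the same fit 5 members passed in model against control, Cxcl17 and Il7r upward and Cxcr1, Il16 and Il1rap downward, where 3.70% of all genes passed. Groups then did not overlap for 36 of 58 members in electroacupuncture against model (62.1%, against 46.4% of all genes). Markers of striatal medium spiny neurons, 10 of 10 measured and none at 0, summed to 153, 349.9 and 324 CPM in the controls, 719 and 329 CPM in the model and 4834, 315 and 163 CPM with electroacupuncture. Neocortical markers, 9 of 9 and none at 0, summed to 221, 247 and 222 CPM in the controls, 381 and 867 CPM in the model and 437, 267 and 249.5 CPM with electroacupuncture. The part of these regional differences in the members' values was not tested.

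**Figure D5:**
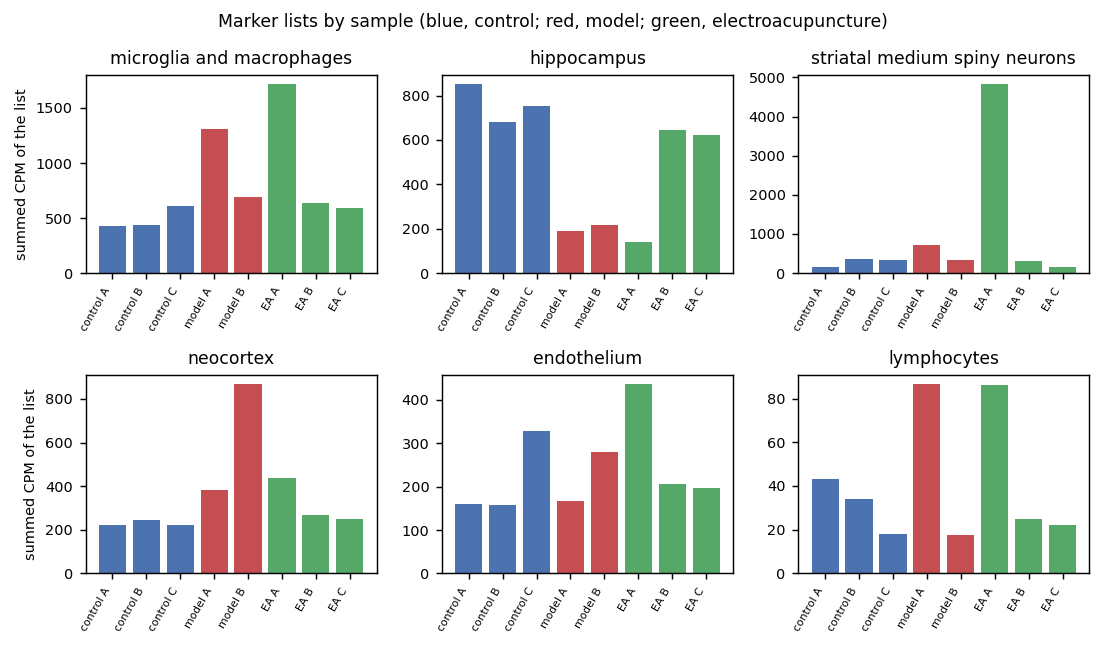
Summed CPM (y axes, linear from 0) of 6 marker lists in the 8 samples (x axes). Microglial markers are highest in model A and electroacupuncture A, summed hippocampal markers are low in both model samples and electroacupuncture A, and striatal markers reach 4834 CPM in electroacupuncture A.

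Endothelial markers, the cells that display several chemokines to blood, were measured for 9 of 10 genes with none at 0. They summed to 160.5, 157 and 329 CPM in the controls, 166 and 280.2 CPM in the model and 436, 207 and 198 CPM with electroacupuncture. Astrocyte markers, 9 of 9, summed to 4116, 4408 and 3354 CPM in the controls, 5789 and 3143 CPM in the model and 6026, 3984 and 4337 CPM with electroacupuncture. The sum was highest in model A and electroacupuncture A and is mostly Gfap and S100b, while Gjb6 was at 37.2 and 32.5 CPM there and at 37.1 to 59.7 CPM in the others. All 10 neuronal markers were detected in every sample and summed to 4170.0 CPM in electroacupuncture A and 6311 to 10640.0 CPM in the others.

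Genes that pass the signal on were read from 4 lists. Of 30 adaptors of the IL-1 and TNF receptors and parts of NF-kB, 0 passed in any comparison by edgeR. In model against control 14 were higher and 16 lower in estimate with a median log2 fold change of -0.01, and 1 was past an unadjusted p of 0.05. That was Traf3, an adaptor of TNF family receptors, at 39.9, 38.6 and 39.6 CPM in the controls, 54 and 71.8 CPM in the model and 39.5, 43.1 and 36.4 CPM with electroacupuncture. Nfkbia, the inhibitor that NF-kB itself induces, measured 36.5, 40.8 and 39.5 CPM in the controls, 49.8 and 125 CPM in the model and 104, 38 and 124 CPM with electroacupuncture. Its 3 highest values lay in model B, electroacupuncture A and electroacupuncture C.

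Of 19 JAK, STAT and SOCS genes, 0 passed and 13 were higher in estimate in the model (median log2 fold change 0.19). Socs2, a brake on cytokine receptors, measured 12.6, 16.7 and 14 CPM in the controls, 36.6 and 25.3 CPM in the model and 8.5, 18.1 and 9.91 CPM with electroacupuncture, with both model samples above all others. Values of 2 of them in model B stood apart from every other sample: Jak1 at 4.21 CPM against 100.3 to 172 CPM and Socs6 at 247 CPM against 7.16 to 12.9 CPM. Among ligands and receptors of the gp130, colony stimulating factor and interferon gamma families, 13 of 18 were tested and 0 passed, with 9 higher in estimate in the model. Clcf1, a ligand of the gp130 family, measured 12.2, 12.7 and 4.21 CPM in the controls, 2.52 and 1.15 CPM in the model and 4.42, 3.4 and 3.69 CPM with electroacupuncture, lowest in model B. Osm, an activator of gp130 with Osmr, was at 49.7 CPM in model B and at 0.275 to 0.52 CPM in the other 7 samples. Of the 11 chemokine genes outside the symbol rule 7 were tested and 0 passed, with 5 higher in estimate in the model and a median of 0.06. At an unadjusted p under 0.05 the 4 lists, with 69 genes tested, held 4 higher and 2 lower genes in model against control (all genes, 7.61% and 6.20%). They held 1 higher and 5 lower in electroacupuncture against model (all genes, 6.30% and 7.18%), and 7 higher and 1 lower in electroacupuncture against control (all genes, 2.71% and 0.956%).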

How the data were processed

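RNA-seq was done on brain RNA of 3 groups, with library RNA selected by oligo(dT), per the labels' protocols. The deposited table holds expected counts per gene symbol, estimated counts of which 70.5% to 72.1% per column are whole. The submitters' processing notes name, without roles, featureCounts 1.5.0-p3, HISAT2 2.0.5, DESeq2 1.16.1 and StringTie 1.3.3b. Neither a genome build nor a strand setting is stated in those notes or the labels. Columns were matched to groups by name. Those named sham were taken as the controls, 3 columns for 4 labelled samples, and 3 pairs of near-identical columns were summed. Expected counts were rounded, filtered with filterByExpr and scaled by TMM, and 15487 genes were tested in 1 fit of 8 samples with edgeR 4.0.16 (quasi-likelihood, robust, Benjamini-Hochberg). Alternatives used DESeq2 1.42.0, other scalings, filters and samples, and the fit was tested on simulated data. Values in every sample are given for members with a mean of at least 1 CPM and for a list of stroke cytokines, and fold changes with SE for up to 8 members per direction and comparison with the smallest p. The members and lists were chosen with earlier results of these data known. Column totals were 8668140 to 11920744 counts, and intervals cover counting error only. All 81 members matched a RefSeq symbol (GRCr8), and promoter windows were at hand for 65. Some items are not reported here.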

Additional observations from a re-analysis of the deposited data

How the results depend on the processing

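Counts of called members depended on the setting. In model against control 0 passed in the edgeR fit of 8 samples, 7 with all columns as separate libraries, 3 of 57 with only the 2 groups compared (1.95% of all genes), 4 with DESeq2, and 0 to 5 when 1 sample was left out. In electroacupuncture against model these were 0, 11, 0, 4 and 0 to 3, and against control 0 throughout. Treating near-identical columns as separate libraries counts them more than once. A replicate block could be fitted only with all columns as separate libraries, since summed samples hold 2 column numbers, and no source ties those numbers to animals. With the block, chosen after seeing the data, 2 of 60 members passed in model against control (3.08% of all genes) and 7 of 60 in electroacupuncture against model (5.72%). Non-overlapping members in model against control were 32 of 63 (50.8%, against 37.8% of all genes). Under the stricter filter they were 21 of 50 (42.0%, against 38.0%), and with 1 sample left out 28 to 57. The 28 were of 58 members without electroacupuncture A (48.3%, against 38.1%). The 57 were of 71 members without model B (80.3%, against 71.8% of all genes). In electroacupuncture against model they were 19 of 63 (30.2%, against 24.6% of all genes), and 19 to 39 with 1 left out. They were 35 of 66 without model A (53.0%, against 52.8%) and 39 of 71 without model B (54.9%, against 49.2%). Without electroacupuncture A they were 36 of 58 (62.1%, against 46.4%). In electroacupuncture against control they were 5, then 3 with all columns, 3 with the block, 3 with only the 2 groups compared, and 5 to 13 with 1 left out. Fewer samples make such separation easier by construction. Scaling by total counts moved the median of all genes to 0.128 in model against control and 0.092 in electroacupuncture against control. Small differences reversed. Il6st in model against control became 0.02 with total counts, 0.02 with the block, and -0.25 to 0.04 with 1 sample left out, above 0 without control C or model B. Il20rb ran from -0.94 to 0.24 with 1 left out, at 0.18 without control B and 0.24 without model B. In electroacupuncture against control, Il1rap ran from -0.77 to 0.06 (the latter without electroacupuncture A), Cxcl12 from -0.62 to 0.16 (without control C) and Il12a from -0.57 to 0.23 (without control B). The cause was not tested. Members under 1 CPM rest on few counts, yet Cxcl13 and Il36rn were called in fits with all columns.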
